A study of Mus musculus with 2 samples.

Results

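Nascent transcription of 10 C-type lectin receptor genes of myeloid cells was followed in mouse macrophages before and after interleukin-4 (IL-4). The genes were Clec4d, Clec4e, Clec4n, Clec4a1, Clec4a2, Clec4a3, Clec5a, Clec7a, Clec12a and Cd209a, and their transcripts were taken by gene name from 2 lists of called transcripts, 1 per library. Of 11054 genes named in at least 1 list, 9 were receptors of this set, and Clec5a was named in neither. By name they held 30 of 43122 called transcripts in control and 34 of 51365 after IL-4.

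Both libraries come from GRO-seq (global run-on sequencing), in which polymerases already engaged on DNA extend their RNA with a bromine-labelled nucleotide and the labelled RNA is captured. The cells were wild-type bone marrow-derived macrophages (BMDMs) from mice aged 8 to 12 weeks, on the C57BL/6 background that the methods give for all strains, grown for 6 days in L929 supernatant, the source of the growth factor M-CSF. The control received no IL-4, and the other culture received 20 ng/ml IL-4 for 1 hr. Run-on reactions done in duplicate were pooled, which left 1 library per condition, so no value below has a replicate, an error over cultures or a test. In such cultures a change in the share of cells that transcribe a gene and a change per cell cannot be told apart.

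C-type lectin receptors bind sugars or lipids on microbes and dead cells through a shared fold. In macrophages they work in 2 opposite ways. Clec4d (MCL, dectin-3), Clec4e (Mincle) and Clec4n (dectin-2) pair with the Fc receptor gamma chain and, like Clec7a (dectin-1), the receptor for beta-glucan, activate the kinase Syk and the adaptor Card9. Clec4a2 (DCIR) and Clec12a carry inhibitory motifs that recruit phosphatases. Clec5a signals through the adaptor Dap12, and Cd209a is the mouse gene named after human DC-SIGN, a receptor of dendritic cells. Most of the set lies on chromosome 6, with Clec4a1, Clec4a3, Clec4a2, Clec4n, Clec4d and Clec4e in 1 stretch of 368 kb (chr6:122921848-123289870, mm10) and Clec12a and Clec7a farther along in the natural killer gene complex.

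The stretches before the start sites of 4 of these genes are shown because the genes took different courses: Clec4d and Clec12a had lower scores after IL-4, Clec4a1 kept its transcripts, and Clec7a gained transcripts. The 4 were thus picked by their values. Clec4a2, which was also lower, and Clec4a3, which also gained transcripts, are not printed. Clec4a2 held STAT letters with 3 bases between them, and the first window of Clec4a3 held no match to any of the motifs below. A link between the motif matches and these courses was not tested. Each line gives the 250 bases before the RefSeq start (GRCm38.p6), in the direction of transcription. Capitals mark matches to 5 kinds of motif searched on both strands, GAGGAA for PU.1, TTC and GAA with 4 or 3 bases between them for STAT factors, TTGCNNAA for C/EBP, TGANTCA for AP-1, and GGGA and CC with 4 bases between them for NF-kB. The PU.1 letters read on the other strand share TTC with the STAT letters, but no 2 matches overlapped in the windows of these genes. The stretches lie at chr6:123261857-123262106 (plus strand), chr6:129349994-129350243 (plus strand), chr6:122921598-122921847 (plus strand) and chr6:129472780-129473029 (minus strand).
Clec4d: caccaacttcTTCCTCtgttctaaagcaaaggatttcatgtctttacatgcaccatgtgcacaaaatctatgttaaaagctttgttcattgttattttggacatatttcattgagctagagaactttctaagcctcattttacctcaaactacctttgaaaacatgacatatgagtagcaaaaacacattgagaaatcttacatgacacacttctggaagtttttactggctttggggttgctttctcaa
Clec12a: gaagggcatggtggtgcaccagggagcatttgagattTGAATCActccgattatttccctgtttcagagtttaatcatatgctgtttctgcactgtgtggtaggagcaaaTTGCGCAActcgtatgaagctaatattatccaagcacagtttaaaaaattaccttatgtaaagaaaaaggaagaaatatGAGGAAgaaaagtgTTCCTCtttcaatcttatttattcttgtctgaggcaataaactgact
Clec4a1: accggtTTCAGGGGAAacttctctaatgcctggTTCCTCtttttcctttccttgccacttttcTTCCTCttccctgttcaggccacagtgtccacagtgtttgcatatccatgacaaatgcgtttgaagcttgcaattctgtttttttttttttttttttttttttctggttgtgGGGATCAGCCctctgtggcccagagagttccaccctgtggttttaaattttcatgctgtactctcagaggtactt
Clec7a: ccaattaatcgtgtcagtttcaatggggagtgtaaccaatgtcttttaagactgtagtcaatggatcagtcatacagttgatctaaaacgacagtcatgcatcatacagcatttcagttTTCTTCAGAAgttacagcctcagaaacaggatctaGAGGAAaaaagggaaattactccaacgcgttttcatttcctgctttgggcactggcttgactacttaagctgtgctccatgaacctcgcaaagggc

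Motifs were counted in windows that ran from 250 bases before to 50 bases after the start, which were at hand for 9 of the 10 receptors, all but Clec4n. PU.1, the factor that sets the macrophage lineage, had its letters in the first window of 6 of 9 receptors (Clec4d, Clec4e, Clec4a1, Clec5a, Clec7a and Clec12a), against 28.3% of 32851 promoter windows. The Clec4d window held 3 PU.1 matches, of which 1, at position -240 from the start, lies in the printed stretch, and it held none of the other letters. The STAT letters with a spacer of 4 bases, the spacing that STAT6 prefers, were found in 3 of 9 windows, against 6.95% of all windows: TTCAGGGGAA at -244 in Clec4a1, TTCCCCTGAA at -98 in Clec5a and TTCTTCAGAA at -131 in Clec7a. With a spacer of 3 bases they were found in Clec4a2 alone of the 9, at -42, against 8.30% of all windows. C/EBP letters were in Clec4e and Clec12a (10.8% of all windows), AP-1 letters in Clec4a2 and Clec12a (7.81%), and NF-kB letters in Clec4a1 (20.7%). The windows had a median G+C content of 42%, against 52.7% over all windows, and between 0 and 6 CpG, with a median of 3 against 7. These matches describe the letters only.

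Next, each gene was given 1 value per library, the highest score among the transcripts that carry its name. The score is the number that the HOMER transcript caller gave each called transcript, printed to 1 decimal, so that a value of 0.1 or 0.2 has few steps. A ratio is the log2 of IL-4 over control, minus the median over the 8879 genes with a value in both libraries, and its range is what the rounding of both scores allows. The median gene was 0.769-fold of control before this centring (-0.38 on the log2 scale), while score times length, summed over every called transcript, was 0.997 of control. Called transcripts were also longer after IL-4 (median 312 against 227 bp) and lower in score (median 0.2 against 0.3). The part of that difference in the results below was not tested.

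A value was present on both sides for 7 of the 10 receptors. Clec4d and Clec4a2 were at least 2-fold lower after IL-4, against 8.62% of all genes, and none of the 7 was at least 2-fold higher, against 8.06% of all genes. Clec4d alone was past 2-fold over its whole rounding range, which held for 3.85% of all genes. The median of the 7 ratios was -0.21, beside 0 over all genes by construction. Clec4e had a value in control only, as did 9.65% of genes with a control value, and Clec4n after IL-4 only, as did 12.1% of genes with an IL-4 value.

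**Figure D1:**
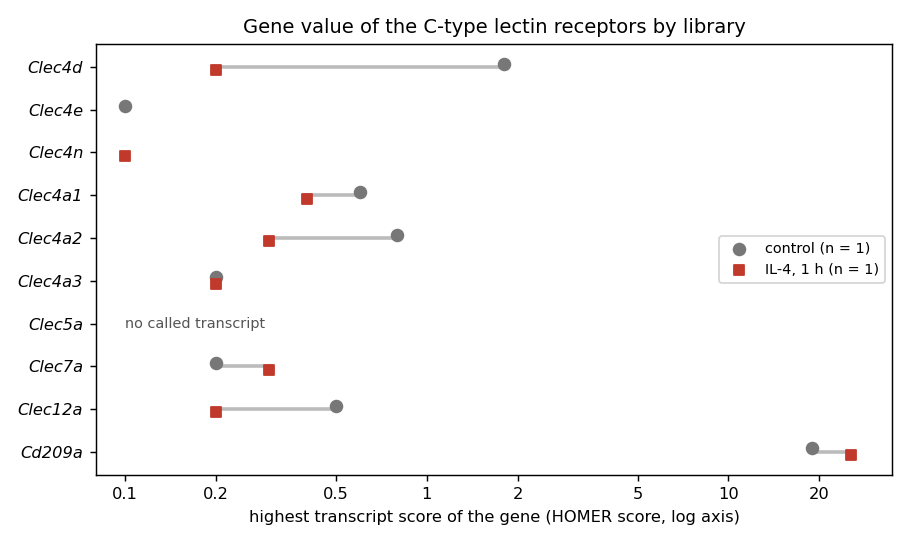
Gene value of each receptor (highest transcript score, log axis) in the control library (grey circles) and after 1 hr of IL-4 (red squares), with a line joining the 2 values of a gene. Clec4d spans the widest gap, from 1.8 to 0.2, and Clec5a has no called transcript.

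Clec4d, which brings Mincle to the cell surface and binds mycobacterial glycolipid, had the lowest ratio of the set. The value of 1.8 in control became 0.2 in the IL-4 library, which is -2.79 as a centred log2 ratio (rounding range -3.25 to -2.43). Only 0.0901% of the 8879 genes had a lower ratio, and the value passed from above 91.7% of control genes to above 11.2% of IL-4 genes. The gene (ENSMUSG00000030144.4, chr6:123262111-123275265, plus strand) held 5 called transcripts on its own strand in control and 1 after IL-4. They covered 897 bp and 268 bp, and the sum of score times length was 683.9 and 53.6, a ratio of 0.0784.

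The control transcripts of Clec4d lay towards both ends of the gene, in intron 1 and from intron 5 to the 3' UTR. The first lay in intron 1 of 5 on a TCTA repeat (chr6:123262338-123262597) and had a score of 1.6. This transcript was the one that overlapped an IL-4 transcript, with a score of 0.2 at chr6:123262316-123262583. Farther into intron 1, transcripts with scores of 0.2 and 0.4 had no counterpart after IL-4. The highest score, 1.8, belonged to a short transcript of 62 bp on a TTTTG repeat in intron 5 (chr6:123274015-123274076), and it had none either. Of 1089 control transcripts that scored 1.8 or more, it was 1 of 10 (0.918%) without a counterpart, and the median length of those 10 was 106 bp against 191 bp over the 1089. On simple repeats or low-complexity sequence lay 294 of the 1089, and 6 of these (2.04%) had no counterpart. The cutoff of 1.8 is the score of this transcript itself. The transcript in the 3' UTR, with a score of 0.3, was also called in control only.

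Both high scores of Clec4d thus lay on simple repeats, where short reads can be hard to place. With transcripts on simple repeats and low-complexity sequence left out, the ratio was -1.68, for which no rounding range was computed. That ratio set an intronic transcript in control (0.4) against one upstream of the gene after IL-4 (0.1), since no other transcript inside the gene was left. It is therefore not a ratio within the gene. The upstream transcript, on an Lx2B LINE element, ended 9975 bp before the start in control (chr6:123251755-123252136, score 0.3) and 10044 bp before it after IL-4 (score 0.1). All 7 control transcripts named for Clec4d, including 1 on the opposite strand in intron 1 (score 0.2), were therefore lower (2) or not called (5) after IL-4.

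The study measured Clec4d mRNA with a primer pair, which is shown here to place that amplicon against the nascent transcripts. Both primers matched transcript ENSMUST00000032240.3, the forward in exon 3 and the reverse, as its complement, in exon 4, and together they spanned chr6:123267122-123268018.
Forward: agtaacgtgcatccgagagg
Reverse: taacaggacagcaggtccaa
No called transcript of either library lay in this span of 897 bp. The nearest control transcripts on the gene's strand ended 2329 bp before it and began 5996 bp after it.

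Clec4e and Clec4n, the other receptors that pair with the Fc receptor gamma chain, sat near the lowest score that the lists hold. Clec4e (chr6:123281789-123289870, minus strand) had 1 control transcript, with a score of 0.1, and it lay on the opposite strand 2457 bp past the 3' end of the gene, in the 6523 bp between Clec4d and Clec4e. No transcript was called inside Clec4e in either library. Clec4n (chr6:123229843-123247021, plus strand) had 1 transcript of 211 bp after IL-4, with a score of 0.1, on a B1 element in intron 2. With the missing value set to 0.1, the lowest score above 0, both genes had equal values in both libraries. Clec4d was thus the one of these 3 receptors with a called transcript inside its gene in control.

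**Figure D2:**
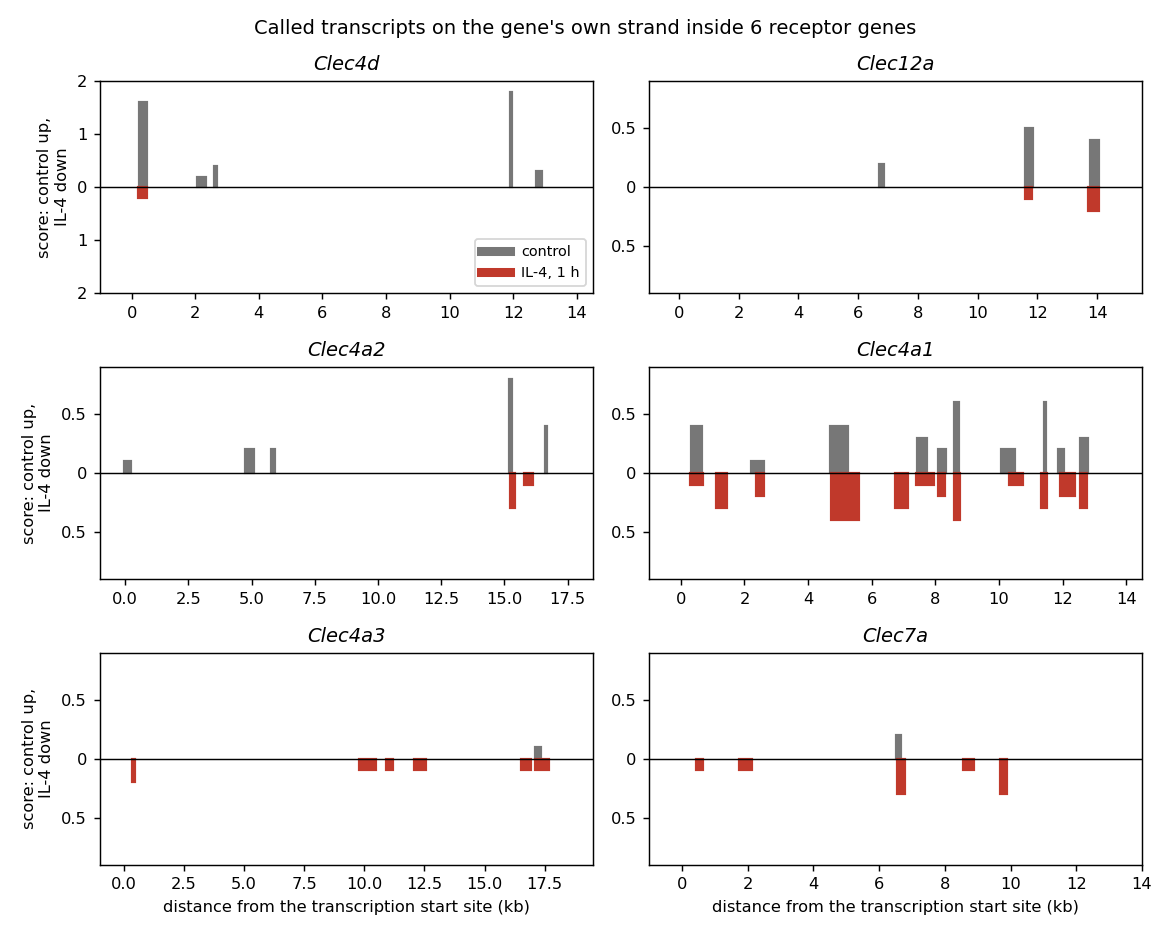
Called transcripts on the gene's own strand inside 6 receptor genes, placed by distance from the start site used in the deposited annotation (kb), with the control score drawn upward (grey) and the IL-4 score downward (red); bar width is transcript length, the Clec4d panel has a taller score axis, and bars of IL-4 transcripts that overlap control ones lie beneath them. Clec4d shows 5 grey bars and 1 red bar, Clec4a1 shows bars of both colours along the gene, and Clec7a and Clec4a3 show more red bars than grey.

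The DCIR group comprised Clec4a2, Clec4a1 and Clec4a3, genes of related sequence in the same stretch of chromosome 6, for which reads of near-identical stretches may be split. Clec4a2, the inhibitory receptor DCIR, went from 0.8 to 0.3, a ratio of -1.04 (rounding range -1.39 to -0.72). That is lower than in control by an amount close to the 2-fold line, and 7.93% of genes had a lower ratio. On its own strand it held 5 transcripts in control and 2 after IL-4, with sums of score times length of 249 and 87.6 (ratio 0.352). The highest one lay in intron 3 in both libraries (chr6:123138520-123138629 in control, score 0.8). After IL-4 it was annotated to a simple repeat, and in control it was not. With repeats left out, the ratio of -2.68 thus set 0.8 in intron 3 in control against 0.1 in an exon after IL-4. Of the 5 control transcripts, 4 had no counterpart after IL-4. One of those 4, with a score of 0.1, lay over the 5' UTR. When the value was read instead from the transcript nearest the start site, the ratio turned to 1.58, because control then rested on that score of 0.1.

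Clec4a1, described as a DCIR relative, was the receptor with the most transcripts. The values were 0.6 (control) and 0.4 (IL-4), and the ratio of -0.21 had a rounding range from -0.51 to 0.09, which includes 0. The gene (chr6:122921848-122934619, plus strand) held 10 transcripts on its own strand in control and 12 after IL-4, which covered 23.0% and 36.3% of its length. All 10 control transcripts had a counterpart, of which 5 had a lower score, 4 an equal score and 1 a higher score before any centring. The sum of score times length was 868.3 in control and 1116 after IL-4 (ratio 1.28), so the highest score and the sum lay on opposite sides of no change. The transcript nearest the start site, in intron 1, had a score of 0.4 in control and 0.1 after IL-4, a ratio of -2. When genes were valued by that transcript, 2459 of 8878 were at least 2-fold lower. Outside the gene, a transcript on the opposite strand was called after IL-4 only, with a score of 0.1. It began 323 bp before the gene start and ran away from the gene. Others on the gene's own strand, also called after IL-4 only with scores of 0.1, lay 520 and 2021 bp past the gene end.

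Clec4a3 had a value of 0.2 in both libraries, which after centring gave a ratio of 0.38 (rounding range -0.36 to 1.12). The control value came from an intergenic transcript 15124 bp before the gene, in the gap between Clec4a1 and Clec4a3. Inside the gene, on its own strand, the values were 0.1 in control and 0.2 after IL-4, a ratio of 1.36 with a wide rounding range (0.36 to 2.68). There was 1 such transcript in control and there were 6 after IL-4, covering 240 and 2592 bp. Of the 6, 5 had no control counterpart, with scores between 0.1 and 0.2.

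**Figure D3:**
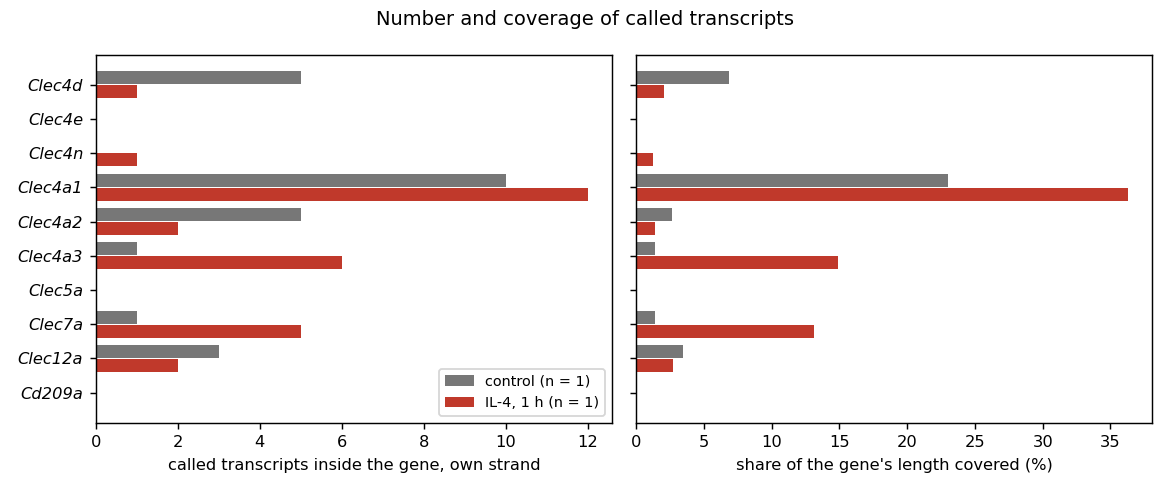
Number of called transcripts inside each receptor gene on its own strand (left) and the share of the gene's length that they cover in percent (right), in control (grey) and after 1 hr of IL-4 (red), 1 library each. Clec4a1 has the highest coverage in both libraries (23.0% and 36.3%), and Clec4d goes from 5 transcripts to 1 while Clec4a3 goes from 1 to 6 and Clec7a from 1 to 5.

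Clec7a, the beta-glucan receptor dectin-1, had more called transcripts after IL-4. Its values were 0.2 in control and 0.3 after IL-4, a ratio of 0.96 (rounding range 0.38 to 1.60), just short of 2-fold, and 87.7% of genes had a lower ratio. The gene (chr6:129461591-129472779, minus strand, which GENCODE lists as a polymorphic pseudogene) held 1 transcript in control, in intron 4, and 5 after IL-4, in introns 1, 2, 4 and 5 and in the 3' UTR. They covered 1.39% and 13.1% of the gene, with sums of score times length of 31.2 and 245 (ratio 7.85). The direction turned when the transcript nearest the start site gave the value: it was 0.2 in intron 4 in control and 0.1 in intron 1 after IL-4, a ratio of -1. By that value 2459 of 8878 genes were at least 2-fold lower. Of the 5, 4 had no control counterpart and scores from 0.1 to 0.3. Across the set, 16 of 34 IL-4 transcripts had no control counterpart, near the 48.1% of all IL-4 transcripts. The median score of such transcripts was 0.1 in the set and over all genes.

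Clec12a, an inhibitory receptor for uric acid crystals, went the other way. Its values were 0.5 in control and 0.2 after IL-4, a ratio of -0.94 (rounding range -1.50 to -0.47), short of 2-fold after centring and past it before (-1.32). It lies 96287 bp from Clec7a (chr6:129342691-129365303, plus strand). It held 3 transcripts in control and 2 after IL-4, and both that were called in the 2 libraries had lower scores after IL-4: 0.5 against 0.1 in intron 5 and 0.4 against 0.2 in the 3' UTR. The sum of score times length was 309.2 in control and 98.1 after IL-4 (ratio 0.317). Over the whole region from Clec12a to Clec7a, the plus strand went from 5 transcripts to 2 after IL-4, whereas the minus strand went from 2 to 6.

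Cd209a had the highest value of the set by name, 18.9 in control and 25.5 after IL-4, a ratio of 0.81. That value did not come from the gene. Its 1 transcript in each library lay 5413 bp before the gene (chr8:3754397-3754631) on a repeat of small-subunit ribosomal RNA, at the same position in both libraries. No transcript was called inside Cd209a in either. Among 7 dendritic cell markers none had a transcript inside its gene on its own strand, whereas all 10 macrophage markers had one in both libraries. Of 8 neutrophil markers, a cell type that also uses Clec4d and Clec4e, 2 had such a transcript in control and 3 after IL-4, with summed values of 1.1 and 0.6. No T cell, B cell or fibroblast marker had one on its own strand, and Cd79a, a B cell gene, had a control transcript with a score of 0.4 on the opposite strand in intron 1. The part of other cells in the values of the receptors was not tested. Without Cd209a the counts of receptors past 2-fold were 2 lower and 0 higher, as with it. Clec5a, the Dap12-coupled receptor (chr6:40574894-40585821, minus strand), had no called transcript by name or by position in either library.

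**Figure D4:**
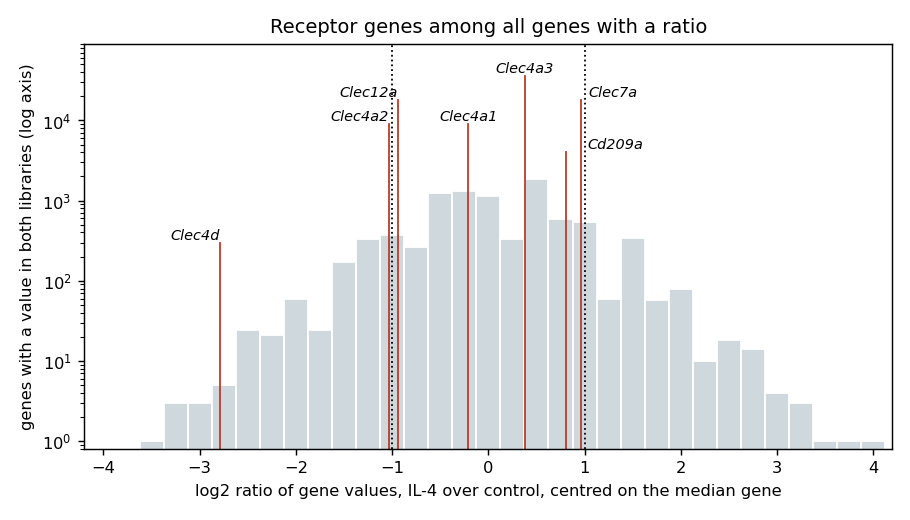
Number of genes (log axis) by centred log2 ratio of gene values, IL-4 over control, for the 8879 genes with a value in both libraries, with dotted lines at 2-fold and red lines at the 7 receptors that have a ratio. Clec4d lies in the lower tail at -2.79, and the other 6 lie between -1.04 and 0.96.

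The receptors were also compared by the fate of each control transcript. Of the 30 named for them, 12 (40%) lacked an overlapping same-strand transcript after IL-4, against 37.4% of all control transcripts, a share near the background. Another 10 had a counterpart with a lower score, 5 with an equal score and 3 with a higher one. The difference within the set was between genes: Clec4d lost 5 of 7 and Clec4a2 4 of 5, while Clec4a1 lost none of 10. Inside the genes and on their own strand, the set held 25 transcripts over 6010 bp in control and 29 over 10297 bp after IL-4. The sum of score times length was 2166 and 1893, a ratio of 0.874. By the highest score inside the gene, 2 of the 6 receptors with a ratio were at least 2-fold lower (Clec4d and Clec4a2), against 8.4% of genes, and Clec4a3 was at least 2-fold higher, against 8.27% of genes.

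A share of these transcripts lay in LINE elements, remnants of retrotransposons. In control 8 of 25 (32%) were annotated to a LINE, against 3.18% of all control transcripts, and after IL-4 5 of 29 (17.2%), against 3.38%. Simple repeats held 2 of 25 and 4 of 29, against 8.36% and 5.55%. These backgrounds take in called transcripts anywhere in the genome, whereas those of the receptors lay inside genes on their own strand, so the sets are unlike. Of the 8 LINE transcripts in control, 4 lay in Clec4a1, and each of those 4 had a counterpart after IL-4, while the other LINE transcripts, in Clec4a2, Clec4d and Clec12a, had none.

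The partners of these receptors were taken from a list of 49 genes of C-type lectin signalling, of which 43 had a value in both libraries. Of these, 2 were at least 2-fold higher and 2 at least 2-fold lower, shares of 4.65% each, against the 8.06% and 8.62% of all genes given above. The median ratio was -0.11. Both lower genes were past 2-fold over their whole rounding range. Syk, the kinase that the activating receptors share, had values of 3.9 in control and 0.7 after IL-4, a ratio of -2.10 (rounding range -2.22 to -1.98). They came from overlapping transcripts that start at the same base of chromosome 13, 169 bp long in control and 691 bp after IL-4. By score times length, summed by gene name, the Syk ratio was -1.33. Mapk8, the kinase JNK1, had values of 1.8 and 0.6 (ratio -1.21). Its highest transcripts were on the opposite strand, and on its own strand the values were 0.4 and 0.3 (ratio -0.05).

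Prkcd, the kinase that links Syk to Card9, was the gene of the list that was higher over its whole rounding range, with values of 1.1 and 1.9 (ratio 1.17). Its highest transcript lay in intron 10 in control and in intron 1 after IL-4, and before centring the ratio was 0.79. Fcer1g, the gamma chain that Clec4d, Clec4e and Clec4n pair with, and Tyrobp, which encodes Dap12, were chosen after their values were seen. Fcer1g had values of 2.3 and 1.4 (ratio -0.34), and Tyrobp had values of 0.8 and 1.0 (ratio 0.70), so neither was past 2-fold.

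**Figure D5:**
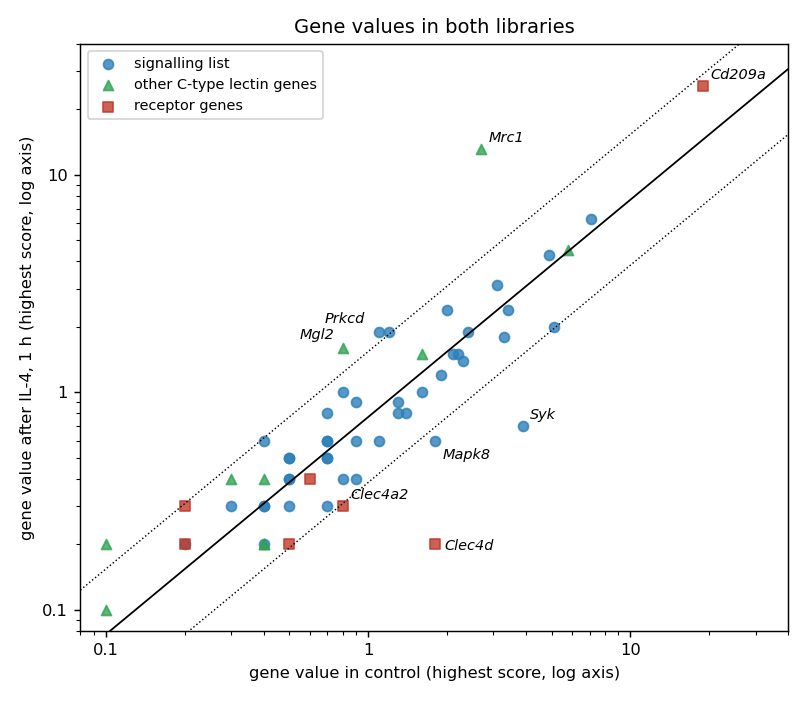
Gene value in control against gene value after 1 hr of IL-4 (highest transcript score, both axes log) for genes with both values: receptors (red squares), signalling list (blue circles) and other C-type lectin genes (green triangles). The solid line is the median gene and the dotted lines are 2-fold from it. Clec4d, Syk, Mapk8 and, close to its edge, Clec4a2 lie below the band. Mrc1, Mgl2, Prkcd and, without labels, Clec1a and Rel lie above it.

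Further C-type lectin genes were taken from a list of 35, of which 10 had values on both sides, 5 had one in control alone and 20 had none. The 5 were among 15 with a control value, beside 9.65% of all genes with a control value that had none after IL-4. No gene of the list had a value after IL-4 alone, beside 12.1% of all genes with an IL-4 value. Of the 10, 3 were at least 2-fold higher, against 8.06% of all genes, and none was lower, against 8.62%. Over the whole rounding range 2 were higher, Mrc1 and Mgl2. The third, Clec1a, had values of 0.1 and 0.2 from transcripts outside its gene, past the 3' end of Clec7a. The median ratio was 0.38. Mrc1, the mannose receptor and a marker of alternative polarization, had values of 2.7 in control and 13.1 after IL-4 (ratio 2.66), both in intron 1. Mgl2, a galactose-type lectin with the same use as a marker, had values of 0.8 and 1.6 (ratio 1.38), from overlapping transcripts on a simple repeat in intron 1. With simple repeats left out the Mgl2 ratio was 0.32.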

How the data were processed

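GRO-seq libraries of control BMDMs and of BMDMs given IL-4 for 1 hr were analysed (n = 1 each), grouped by their treatment labels. Per the submitters' processing notes the authors used BWA 0.7.10, SAMtools 0.1.19 and HOMER 4.2 with mm10, and the methods give HOMER's GRO-seq style for these samples. The deposited lists hold a score per called transcript, rounded to 1 decimal. Whether the score was scaled to library size, and how reads with several matches were placed, is not given in the sources used here. Read counts were not analysed here, so the depth is unknown and no interval is given.

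Gene values, ratios and counts were computed with Python 3.11.15 and pandas 2.3.3, and the functions were tested on simulated data. A call means at least 2-fold after centring, with the rounding range set by 0.05 on each score. Counterparts overlapped by at least 1 bp on the same strand. Gene positions came from GENCODE M21 and promoters from RefSeq (GRCm38.p6). All receptors were named. From the other lists, genes past 2-fold over the whole rounding range were named. The members, lists and tests were chosen with earlier results of these data known. Alternatives varied the gene value, repeats, score minimum, centring, threshold and missing values. The genome sequence and receptor proteins were not used here.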

Additional observations from a re-analysis of the deposited data

How the results depend on the processing

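No paired analysis was possible because each condition had 1 library, and no replicate could be left out. Clec4d was at least 2-fold lower under all 7 alternatives that gave it a value (ratios from -3.71 to -1.68), and with a score minimum of 0.3 it had none. The ratio of -1.68, with repeats left out, compared a transcript inside the gene with one upstream of it. Clec12a was below 0 under all 7, and past 2-fold in 5. In these counts, and in that of Clec4a2 next, the setting for missing values could not change the ratio, since these genes had both values. Clec4a2 was past 2-fold lower in 7 of 8. Among those 7, the setting with repeats left out (-2.68) dropped its highest IL-4 transcript but kept the control counterpart, so it did not compare like with like. Clec4a2 reversed to 1.58 when the transcript nearest the start site gave the value, as did Syk (1.58) and Mgl2 (-1). With that value Clec7a also turned, from 0.96 to -1, while summed scores gave it 2.46 and score times length 2.82, and Clec4a1 went from -0.21 to -2. The receptors at least 2-fold lower, 2 of 7 as reported, were 4 of 7 with the nearest transcript, beside 2459 of 8878 genes. With the score minimum they were 1 of the 3 that kept a ratio, beside 386 of 5952 genes. They were 1 of 7 with the 3-fold threshold (228 of 8879 genes) or the whole rounding range (342 of 8879 genes). Those higher, 0 of 7 as reported, were 1 of 6 with the same-strand overlap (677 of 8186 genes) and 1 of 7 with the nearest transcript (975 of 8878 genes). They were 2 of 7 with summed scores (1208 of 8879 genes), score times length (1529) or a 1.5-fold threshold (1793).

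All genes lower (765 as reported) were 1219 with summed scores, 1500 with score times length, 2459 with the nearest transcript, 386 with the score minimum, 2161 without centring, 2164 at 1.5-fold, 228 at 3-fold and 342 over the rounding range. All genes higher (716) were 1208, 1529, 975, 336, 531, 1793, 204 and 326 in that order, so without centring the split moved towards lower. Signalling genes lower (2) were 6 with the overlap, 5 with summed scores, 9 with score times length, 12 with the nearest transcript, 7 without centring, 7 at 1.5-fold and 1 at 3-fold. Signalling genes higher (2) were 7 with score times length, 1 with the score minimum, 0 without centring, 5 at 1.5-fold, 0 at 3-fold and 1 over the rounding range. Other lectins lower (0) were 1 with summed scores, 1 with score times length, and 2 with the nearest transcript, without centring or at 1.5-fold, and other lectins higher (3) were 1 at 3-fold. With the score minimum the receptors' own-strand transcripts were 14 in control and 9 after IL-4, in place of 25 and 29. The causes were not tested. Of the remaining comparisons of counts, 48 stayed within 1.5 times. The setting without Cd209a was chosen after seeing the data. Low scores rounded to 1 decimal and 1 library per condition limit every value here.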

Other observations

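Within the same gene clusters, neighbouring lectin genes that are not among the 10 receptors were called at low scores, and they are named here after their values were seen. Clec4b1, which lies in the Clec4 cluster, was called in control only, with 2 transcripts that reached 0.3. Clec12b, an inhibitory receptor gene next to Clec12a, was likewise named in control only, by 2 transcripts of at most 0.2 that did not overlap the gene on its strand. Over all genes with a control value, 9.65% had none after IL-4. Clec1a, which lies between Clec12a and Clec7a, had 1 transcript by name in each library, 0.1 in control and 0.2 after IL-4 (ratio 1.38, rounding range 0.38 to 2.70). Neither lay inside Clec1a on its strand. Both lay past the 3' end of Clec7a (chr6:129461591) and on its strand, at chr6:129459605-129459868 in control and chr6:129460967-129461305 after IL-4. The IL-4 one was annotated to a termination site, so this ratio does not show a change inside Clec1a. Clec4a4 had 1 transcript by name in each library with a score of 0.1, outside the gene in both. On the plus strand of the whole Clec4 cluster, 27 transcripts covered 6636 bp in control and 26 covered 9620 bp after IL-4, while the median score was 0.3 and 0.1 and the sum of score times length was 2136 and 1690.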
